A study of Mus musculus with 2 samples.

Results

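The genes of heme breakdown were examined in immune cells of mouse pancreatic islets. The set was a list of 7 genes given by symbol, namely Hmox1, Hmox2, Blvra, Blvrb, Slc48a1, Spic and Bach1, and all 7 were found among the 31053 genes of both count tables. The list sets no threshold on a measured value. Per the labels, islets were pooled from 6 to 8 male C57BL/6J mice on a chow diet, and live CD45-positive, Epcam-negative, DAPI-negative cells were sorted for droplet RNA sequencing of transcript 3′ ends. A single library carried the time label 12 weeks and another the label 1 week. What is counted in weeks is not stated, nor is the age of the mice. The libraries also had different experiment numbers, so that the time labels and the experiments cannot be told apart.

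Macrophages clear dying cells and take up their heme. Inside the phagolysosome, heme is passed to the cytosol by the carrier HRG1 (Slc48a1). Heme oxygenase (the inducible Hmox1 or the constitutive Hmox2) opens it into biliverdin, iron and carbon monoxide. The biliverdin reductase Blvra reduces biliverdin to bilirubin, while the reductase Blvrb acts on biliverdin isomers and flavins. The freed iron is stored in ferritin or exported by ferroportin. The repressor BACH1 sits on the Hmox1 gene until heme displaces it, NRF2 activates the same gene under oxidant stress, and the transcription factor SPIC is required for the iron-recycling macrophages of the spleen.

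The 12-week library held 12448628 unique transcript counts (UMIs) over 1867 barcodes and the 1-week library 12858754 UMIs over 1551 barcodes, and 3 barcode sequences occurred in both. After filters, 1620 of 1752 cells at 12 weeks and 1243 of 1340 at 1 week had at least 5 UMIs of the complement genes C1qa, C1qb and C1qc and were taken as macrophages, with medians of 6890.5 and 7401 UMIs per cell. All 9 macrophage markers were detected in them, and 74 and 100 of these cells also carried the minimum of B, T or dendritic markers. Cells with fewer C1q UMIs were grouped by their own markers into 20 and 10 dendritic, 27 and 26 B and 30 and 9 T cells. A further 53 and 52 cells reached no list. Islet hormone transcripts were their most abundant RNA, with 7 and 23 of them over 5% endocrine UMIs, and neutrophil markers summed to 5634 and 259 CPM in them.

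On the mouse assembly GRCm38, the identifiers of the count tables placed Hmox1 (ENSMUSG00000005413) at chr8:75093621-75100589 and Blvrb at chr7:27447978-27466144, both on the plus strand. Slc48a1 lay at chr15:97778520-97792692, Bach1 at chr16:87698945-87733346, Hmox2 at chr16:4726361-4766742 and Blvra at chr2:127070665-127097084, all on the plus strand. Spic lay on the minus strand at chr10:88674772-88685015. Hmox2 overlapped Gm15859 on the same strand, so counts of Hmox2 are uncertain where the annotation could split them. The coordinates span exons, introns and UTRs of each protein-coding gene, while the counts came from 3′ ends.

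Start-site windows were taken from RefSeq (GRCm38.p6) for Blvrb, Bach1, Blvra, Hmox2 and Spic. The 250 bases before the start are shown for Blvrb and Bach1, whose RNA was higher in Hmox1-rich macrophages, and for Blvra, whose RNA was not, as described further on. They lie at chr7:27447728-27447977, chr16:87698704-87698953 and chr2:127070407-127070656, are written 5′ to 3′ on the plus strand in lower case, and capitals mark a match to either searched motif on either strand.
Blvrb: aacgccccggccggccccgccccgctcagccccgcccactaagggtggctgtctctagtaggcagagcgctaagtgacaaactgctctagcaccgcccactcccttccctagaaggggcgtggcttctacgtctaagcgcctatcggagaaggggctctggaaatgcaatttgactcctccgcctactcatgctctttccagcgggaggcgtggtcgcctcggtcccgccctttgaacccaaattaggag
Bach1: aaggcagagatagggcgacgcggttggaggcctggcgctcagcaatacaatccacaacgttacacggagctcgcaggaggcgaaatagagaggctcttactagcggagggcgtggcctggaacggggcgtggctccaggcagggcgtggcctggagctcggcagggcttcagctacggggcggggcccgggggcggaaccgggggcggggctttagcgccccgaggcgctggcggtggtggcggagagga
Blvra: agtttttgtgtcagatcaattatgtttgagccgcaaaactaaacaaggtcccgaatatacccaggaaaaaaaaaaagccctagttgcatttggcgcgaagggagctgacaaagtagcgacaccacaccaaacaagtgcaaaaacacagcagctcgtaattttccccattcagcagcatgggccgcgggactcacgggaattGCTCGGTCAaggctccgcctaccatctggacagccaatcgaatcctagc
The antioxidant response element core TGACNNNGC, the letters through which NRF2 and BACH1 are known to act, occurred in 10.2% of 32851 such windows. The AP-1 core TGAGTCA, which can form part of a MAF recognition element, occurred in 4.46%. A match to both can cover the same bases, since TGACTCA, the AP-1 core read on the other strand, can begin an antioxidant core. Among the windows of these 5 genes a single match was found, to the antioxidant core on the minus strand of Blvra from base -49 to base -41 before the start. The match is a description of letters in this window.

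Macrophages held far more Hmox1 RNA than the B, T and dendritic cells, and more Blvrb and Bach1. Hmox1 stood at 3758 CPM (counts scaled to a common total of UMIs) in macrophages of the 12-week library (95% Poisson interval 3722 to 3793), against 161 (103 to 240) in T cells, 75.6 (39.1 to 132) in dendritic cells and 19.0 (2.30 to 68.5) in B cells. At 1 week Hmox1 stood at 1810 CPM (1786 to 1835) in macrophages, against 181 (105 to 289) in dendritic cells and 75.7 (44.9 to 120) in B cells. The 9 T cells of that library held 0 UMIs, with an interval of 0 to 130 CPM. The intervals cover counting error only. The macrophage values were above every interval of the other groups, while neighbouring non-macrophage groups overlapped. All low-C1q cells together, with the ungrouped ones, held 200 CPM (170 to 234) at 12 weeks and 101 CPM (83.7 to 122) at 1 week.

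At equal depth an Hmox1 UMI was also found in a larger share of macrophages than of the other groups. With every cell thinned to 1000 UMIs, 77.2% of macrophages at 12 weeks had an Hmox1 UMI (exact interval 75.1 to 79.2). At 1 week 53.9% of macrophages did (51.1 to 56.7). Among B cells, 0 of 27 had one at 12 weeks (0 to 12.8%) and 3.85% at 1 week (0.0973 to 19.6). Dendritic cells had shares of 5% (0.127 to 24.9) and 10% (0.253 to 44.5) and T cells of 3.33% (0.0844 to 17.2) and 0 of 9, and the intervals of the 3 groups overlapped. Without thinning the shares were 93.5% and 77.1% of macrophages, against 7.41% and 23.1% of B cells, whose median depths were 3074 and 6040.5 UMIs. The share in B cells, the group with the least Hmox1 at 12 weeks, is given for reference. The part of free RNA in it was not tested.

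Blvrb, the reductase that acts on biliverdin isomers and flavins, stood at 252 and 203 CPM in macrophages of the 12-week and 1-week libraries. In dendritic cells it stood at 31.5 and 21.2 CPM and in B cells at 56.9 and 12.6 CPM. Bach1, the heme-sensing repressor, stood at 272 and 215 CPM in macrophages, against 107 and 42.5 in dendritic cells and 37.9 and 46.3 in B cells. For both genes the macrophage values of both libraries lay above all 4 values of the other groups.

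Summed profiles of macrophages, dendritic cells and B cells were tested with edgeR, with the library as a block, over 2768 genes. The T group was left out because its 1-week library had 9 cells, under the minimum of 10. Hmox1 was higher in macrophages by a log2 fold change of 5.08 (SE 0.50, adjusted p = 0.000286), Blvrb by 3.05 (SE 0.33, adjusted p = 0.000436) and Bach1 by 1.998 (SE 0.31, adjusted p = 0.00214). These 3 of the 7 members passed the filter on low counts, and 20.6% of all genes tested were called higher. A gene could pass that filter through macrophages alone, so the count of called members carries no weight of its own. Within the 12-week library the differences were 6.82, 2.77 and 2.29 for Hmox1, Blvrb and Bach1, and within the 1-week library 3.98, 3.65 and 2.30, values with no test. The Hmox1 difference therefore differed several-fold between the libraries, and its direction was the same in both. At 12 weeks it rests on 2 Hmox1 UMIs in B cells and 12 in dendritic cells, so the size of that gap is uncertain.

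Against each group alone the same 3 members were called. Against B cells the log2 fold changes were 5.50 for Hmox1 (SE 0.68, edgeR adjusted p = 0.000704), 2.88 for Blvrb and 2.26 for Bach1, where 22% of genes were called higher. The 12-week library alone gave 7.88, 2.40 and 3.097 for the same genes, and the 1-week library alone 4.42, 3.85 and 2.06. The 7.88 rests on the 2 Hmox1 UMIs of the 12-week B group. Against dendritic cells they were 4.66 (SE 0.64, edgeR adjusted p = 0.00293), 3.22 and 1.74, where 10.3% of genes were called higher. Here the 12-week library alone gave 5.76, 3.13 and 1.47, and the 1-week library alone 3.54, 3.46 and 2.55. The B group of the 1-week library carried 108077 CPM of islet hormone markers, against 1006 CPM at 12 weeks, and macrophage markers summed to 1052 and 1529 CPM in dendritic cells and 94.9 and 177 CPM in B cells. Their part in these differences was not tested.

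The remaining members were too sparse in the small groups for that test. Spic had 1051 and 489 UMIs in macrophages of the 12-week and 1-week libraries, or 91.9 CPM (86.4 to 97.6) and 42.9 CPM (39.2 to 46.8). B cells held 0 Spic UMIs in both libraries, so that macrophages were at least 3.23-fold higher at 12 weeks and at least 3.40-fold higher at 1 week, taking 3 counts per library as the floor. Dendritic cells held 0 Spic UMIs at 12 weeks (at least 4.86-fold higher in macrophages) and 1 UMI at 1 week. The 3 Spic UMIs of the 12-week T group came from a single cell of 30.

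Slc48a1, the heme carrier, stood at 63.0 CPM (58.5 to 67.8) in macrophages at 12 weeks and 39.9 (36.3 to 43.7) at 1 week. In dendritic cells its values were 31.5 (10.2 to 73.5) and 31.9 (6.57 to 93.1) CPM, and these intervals overlap those of macrophages. In B cells it had 1 UMI in each library. Hmox2, the constitutive oxygenase, stood at 25.8 and 30.0 CPM in macrophages, against 25.2 and 10.6 in dendritic cells, 37.9 and 16.8 in B cells and 67.2 and 35.4 in T cells. The 12-week T value (32.2 to 124) lay above that of macrophages (22.9 to 28.9), and the other intervals of Hmox2 overlapped. Blvra, which reduces biliverdin to bilirubin, stood at 21.6 and 25.2 CPM in macrophages and had at most 5 UMIs in any of the other groups. Apart from that T value, differences of macrophages from a single group in Hmox2 and Blvra were not detectable at this depth. In all low-C1q cells together, with the ungrouped ones, Blvra at 1 week stood at 10.5 CPM (5.42 to 18.3), below macrophages (22.4 to 28.3). At 12 weeks it stood at 15.2 CPM (7.87 to 26.6) in those cells, which overlapped macrophages (19.0 to 24.5).

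**Figure D1:**
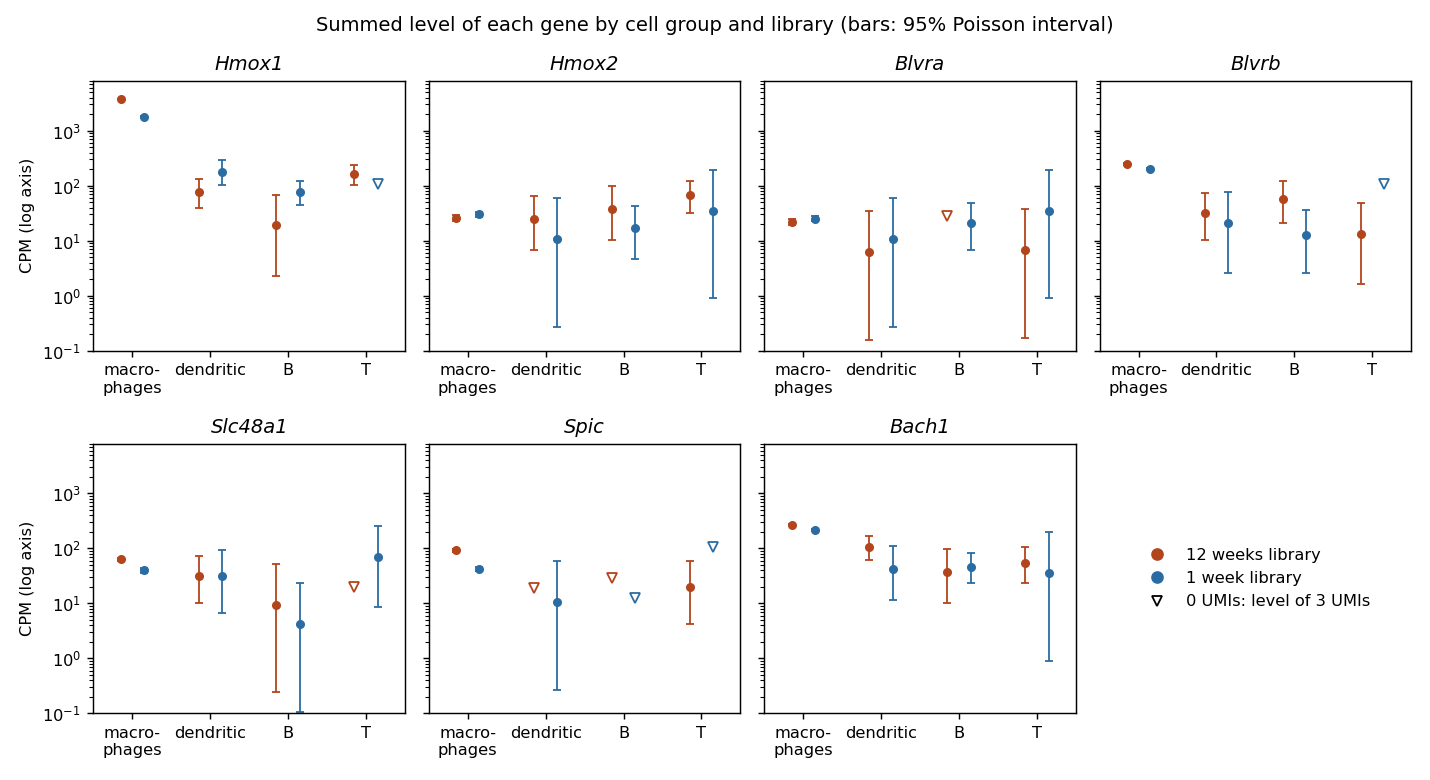
Level of each gene in CPM (log axis) in macrophages and in low-C1q dendritic, B and T cells, 12-week library left of 1-week library. Points are summed levels, bars 95% Poisson intervals of counting error, and open triangles the level of 3 UMIs where none was counted. Hmox1, Blvrb and Bach1 of macrophages stand above the dendritic and B values in both libraries, while Hmox2 and Blvra overlap.

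Across lists of related genes, macrophages were above the mean of the B and dendritic cells in most tested antioxidant and lysosomal genes. The same held for most immediate early and heat shock genes. Against dendritic cells alone fewer antioxidant genes passed. A list gene could also pass the low-count filter through macrophages alone, so these counts carry no weight of their own. Over all genes tested 20.6% were called higher, with 22% against B cells alone and 10.3% against dendritic cells alone. Among 14 NRF2 target genes, 11 were tested and 10 were higher, with a list median log2 fold change of 2.44 against -0.036 over all genes. Against B cells alone 9 of the 11 were higher, and against dendritic cells alone 5. Prdx1, a peroxide-reducing peroxiredoxin, differed by 2.60 (SE 0.24). All 9 tested of 10 lysosomal genes were higher, and 8 were against dendritic cells alone. The protease gene Ctsd, with the smallest p of the list, differed by 3.41 (SE 0.28). Of 15 iron genes, 7 were tested and 4 were higher, among them the ferritin chains Fth1 at 2.34 (SE 0.20) and Ftl1 at 2.36 (SE 0.22), and against dendritic cells alone 3 were higher and 1 lower. Por, which hands electrons to heme oxygenase, was higher by 4.83 (SE 0.50). Of 10 immediate early genes 8 were higher, and 3 were against dendritic cells alone. Of 10 heat shock genes 6 were higher, and 6 were against dendritic cells alone. Of 2 tested metallothionein list genes 0 were called against the mean of both groups. Of the BACH1 and NRF2 partners 4 of 5 tested were higher than the mean of both groups, but 2 were higher than dendritic cells alone, namely Mafg and Maff. Nfe2l2, the gene of NRF2, differed by 3.53 (SE 0.36) from B cells and by -0.18 (SE 0.26, edgeR adjusted p = 0.690) from dendritic cells.

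Between the time labels no test was possible, since each had a single library. Hmox1 was 2.08 times as high in macrophages at 12 weeks as at 1 week, Spic 2.14 times and Slc48a1 1.58 times, from the CPM values given above. These 3 members passed a ratio of 1.5, which 4.97% of 6179 genes with at least 10 CPM passed in that direction. Bach1 stood at a ratio of 1.27 and Blvrb at 1.24. Hmox2 and Blvra stood at 0.860 and 0.855, and the median log2 ratio of all genes was -0.047. Stress and hormone RNA of macrophages differed between the libraries as well. The 10 heat shock genes summed to 16096 CPM at 12 weeks and 7165 CPM at 1 week, the 3 metallothionein list genes to 11402 and 5214 CPM, and the 6 endocrine markers, all detected, to 5737 and 19676 CPM. Their part in the ratios was not tested, and the ratios compare these libraries with no replicate check.

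Hmox1 was spread widely from cell to cell. With macrophages thinned to 3000 UMIs, the 12-week library (1530 cells) held a median of 9 Hmox1 UMIs per cell, with a 10th to 90th percentile of 0 to 26 and a maximum of 62. The 1-week library (1089 cells) held a median of 3, with percentiles of 0 to 15 and a maximum of 40. No Hmox1 UMI was found in 10.7% of thinned macrophages at 12 weeks and 27.5% at 1 week. Cells with no Hmox1 and cells with over 10 UMIs thus occurred in both libraries.

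**Figure D2:**
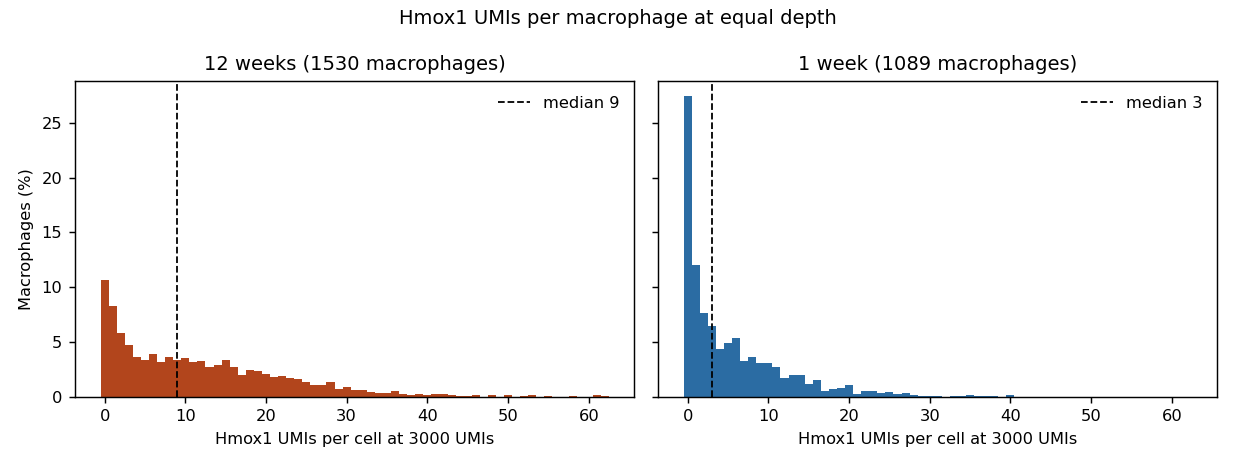
Share of macrophages (%) by their number of Hmox1 UMIs after thinning each cell to 3000 UMIs, 12-week library left and 1-week library right, with the median as a dashed line. The medians are 9 and 3 UMIs, and both distributions have a long upper tail.

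The variance of Hmox1 counts was 9.66 and 8.41 times their mean in the 12-week and 1-week libraries, which ranked 18 and 28 among 2516 genes found in at least 10% of thinned macrophages of both. When each cell's UMIs were split at random into 2 parts of 2000, the Hmox1 counts of the parts correlated at 0.87 and 0.82 (Pearson r of log2(UMIs + 1)), so that most of the spread recurred in separate UMIs of the same cell. Spic, a gene of few cells, correlated at 0.45 and 0.33 and was found in 17.9% and 9.73% of thinned macrophages. Blvrb correlated at 0.18 and 0.19, Bach1 at 0.16 and 0.20 and Slc48a1 at 0.099 and 0.020, against medians of 0.071 and 0.064 over all genes. Hmox2 (0.0012 and 0.0086) and Blvra (-0.029 and 0.055) showed little recurrence at this depth, as did Slc48a1 at 1 week, so a weak correlation of theirs with another gene cannot be read.

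Of the 21 pairs of members, 3 correlated at 0.1 or more across macrophages of both libraries, and each of the 3 included Hmox1. Hmox1 correlated with Slc48a1 at 0.19 and 0.16, with Blvrb at 0.19 and 0.12 and with Bach1 at 0.17 and 0.22 in the 12-week and 1-week libraries. As background, 8.67% of 2515 genes correlated with Hmox1 at 0.1 or more in both, and Bach1, Slc48a1 and Blvrb ranked 72, 85 and 155 among them. With Spic the values were 0.095 and 0.082, and with Hmox2 and Blvra they ranged from -0.095 to -0.058. The 15 pairs without Hmox1 ranged from -0.052 to 0.10. Slc48a1, Blvrb and Bach1 recurred weakly between parts of the same cell, as given above, so low values between them cannot be read. The cells of a library share their pool of mice and their depth, and the values are descriptions.

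**Figure D3:**
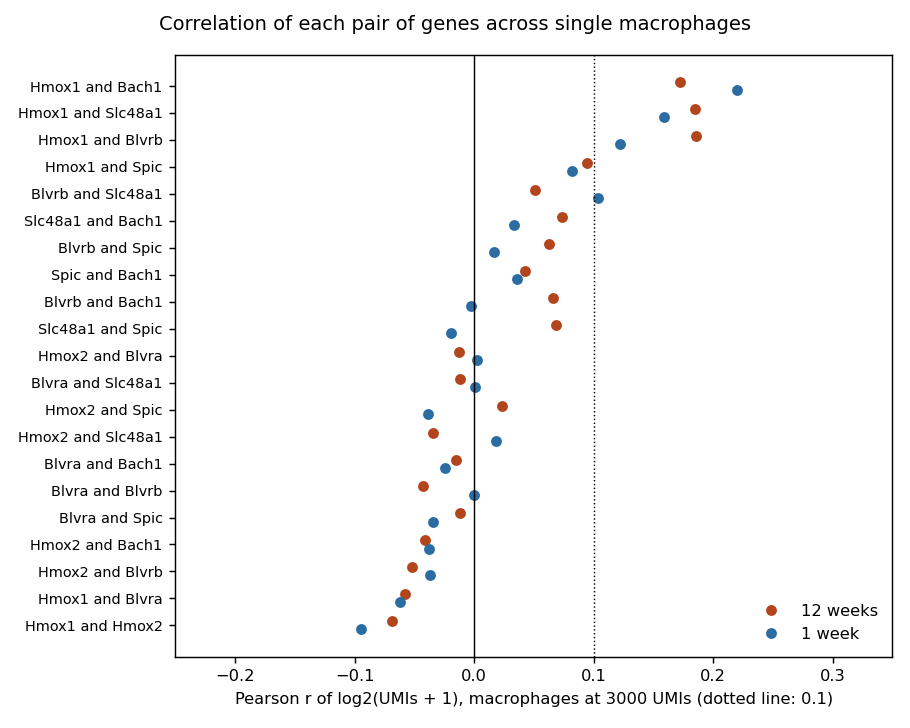
Pearson r of log2(UMIs + 1) for each of the 21 gene pairs across macrophages thinned to 3000 UMIs, with a point per library. The pairs of Hmox1 with Bach1, Slc48a1 and Blvrb lie at or above 0.12 in both libraries, and all 15 pairs without Hmox1 lie between -0.052 and 0.10.

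By r at this depth, the genes most like Hmox1 across macrophages were mostly antioxidant, iron, metal and stress genes. By the lower r of the libraries the first was Ftl1, the ferritin light chain (0.50 and 0.51 in the 12-week and 1-week libraries), followed by Prdx1 (0.50 and 0.54), the metallothionein gene Mt1 (0.47 and 0.55) and the chemokine gene Cxcl2 (0.52 and 0.46). Txnrd1, Sqstm1, Ubb, Srxn1 and Hsp90aa1 followed, with lower values between 0.39 and 0.42. Tmsb4x, Rpl41, C1qa, Cd52 and Rps12 ran most opposite, at -0.23 or lower in both libraries. Ftl1, Prdx1 and Mt1 were also the genes most like Blvrb, with r of 0.14 to 0.19. Slc48a1 was most like Prdx1 (0.22 and 0.18), then Hmox1 and Lipa, the lysosomal acid lipase gene (0.13 and 0.15). Bach1 was most like Sqstm1 (0.17 and 0.20), a selective autophagy receptor that also binds the NRF2 inhibitor KEAP1, then Hmox1 and Txnrd1. Spic, Hmox2 and Blvra were found in under 10% of thinned macrophages of at least 1 library and were not ranked. Slc48a1, Blvrb and Bach1 recurred weakly between parts of the same cell, which limits their r. Their place behind the genes most like Hmox1 therefore cannot be read.

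To test these relations across libraries, macrophages with at least 4000 UMIs (the sum of both parts) were ranked by Hmox1 in the first random part of 2000 UMIs, cut at the tertiles of each library, and every other gene was counted in the second part. At 12 weeks the 435 Hmox1-high cells had 11 to 42 Hmox1 UMIs and the 509 Hmox1-low cells 0 to 3. At 1 week the 325 high cells had 5 to 30 and the 448 low cells 0 or 1. In the second part Hmox1 itself stood at 7462 and 4375 CPM in high cells of the 12-week and 1-week libraries, against 793 and 366 CPM in low cells. The ranking thus held in UMIs that it had not used.

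Slc48a1, Bach1 and Blvrb were higher in Hmox1-high than in Hmox1-low macrophages. Slc48a1 stood at 95.4 CPM (95% Poisson interval 76.0 to 118) and 56.9 CPM (40.1 to 78.5) in high cells of the 12-week and 1-week libraries, against 24.6 (15.9 to 36.3) and 23.4 (14.5 to 35.8) in low cells. Both high values lay above both low intervals. On the log2 scale Slc48a1 was higher by 1.77 (SE 0.26, edgeR adjusted p = 0.000434), with 2.10 and 1.31 within the libraries.

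Bach1 stood at 316 (280 to 356) and 268 (229 to 311) CPM in high cells, against 215 (188 to 246) and 173 (147 to 202) in low cells. On the log2 scale Bach1 differed by 0.69 (SE 0.12, edgeR adjusted p = 0.00234), with 0.70 and 0.66 within the libraries. Blvrb stood at 285 (251 to 323) and 254 (217 to 296) CPM in high cells, against 189 (163 to 217) and 198 (170 to 229) in low cells. On the log2 scale Blvrb differed by 0.58 (SE 0.13, edgeR adjusted p = 0.0124), with 0.74 and 0.40 within the libraries, and at 1 week its intervals overlapped.

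All 6 tested members passed the filter on low counts, and 3 of 6 were called higher where 6.85% of 6085 genes were called higher and 2.47% lower. The members' median log2 fold change was 0.63, against -0.029 over all genes. Spic stood at 92.0 and 47.7 CPM in high cells, against 64.8 and 29.0 in low cells, a log2 difference of 0.68 (SE 0.22) that missed the threshold at an edgeR adjusted p of 0.0612, while 6 alternatives called it at 0.78 to 1.03. Hmox2 stood at 20.7 and 21.5 CPM in high cells, against 32.4 and 45.8 in low cells (-0.77, SE 0.31, edgeR adjusted p = 0.140), and without macrophages that carried other markers it was called lower at -1.44 (edgeR adjusted p = 0.0129). Blvra stood at 26.4 and 20 CPM in high cells, against 28.5 and 31.3 in low cells (-0.24, SE 0.31, edgeR adjusted p = 0.688). For these 3 genes the counting intervals of high and low cells overlapped in at least 1 library.

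The p-values set a difference against its spread between the 2 libraries, with 2 residual degrees of freedom. In edgeR each gene's variance was also drawn towards that of all genes tested. The 3 calls rest on the library block. Without it the edgeR adjusted p was 0.0572 for Slc48a1, 0.167 for Bach1 and 0.215 for Blvrb at nearly the same fold changes, and by DESeq2 Bach1 was called (adjusted p = 0.0138), Blvrb was not (0.0671) and Slc48a1 received no adjusted p.

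In finer groups of Hmox1 counts, Slc48a1 was higher at each step. At 12 weeks it stood at 19.5, 23.7, 55.6, 71.4 and 95.4 CPM in cells with 0, 1 to 2, 3 to 5, 6 to 10 and over 10 Hmox1 UMIs, and at 1 week at 22.3, 28.6, 38.3, 47.1 and 75.8 CPM. Neighbouring steps overlapped in their counting intervals. Bach1 stood at 207, 209, 235, 304 and 316 CPM at 12 weeks and at 164, 207, 230, 282 and 273 CPM at 1 week. Spic at 1 week was lowest in cells without Hmox1, at 17.5 CPM (8.74 to 31.3) against 41.2 to 63.8 CPM in the other groups, whose intervals it overlapped in part, while at 12 weeks it ranged from 61.0 to 92.0 CPM with overlapping intervals. Blvrb at 12 weeks was likewise lowest in cells without Hmox1, at 124 CPM (92.6 to 164) against 224 to 285 CPM. At 1 week Blvrb stood at 194 (161 to 232), 229, 217, 268 and 237 CPM with overlapping intervals, so that step was not seen there.

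**Figure D4:**
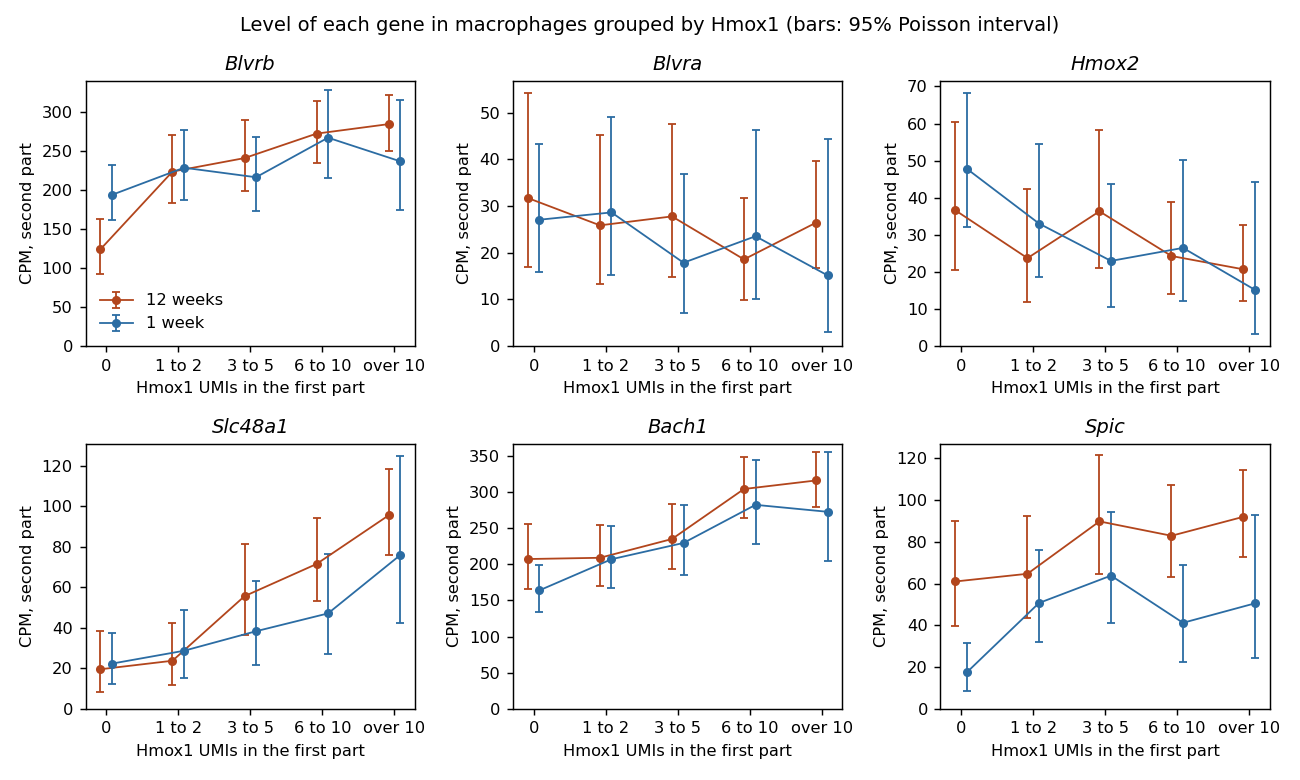
Level of 6 genes in CPM, counted in the second part of 2000 UMIs, in macrophages grouped by Hmox1 UMIs in the first part, with a line per library and 95% Poisson intervals of counting error. Slc48a1 climbs from 19.5 to 95.4 CPM at 12 weeks and from 22.3 to 75.8 CPM at 1 week, while Hmox2 and Blvra show no climb.

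Genes around the pathway differed with Hmox1 too, in lists grouped by function. The lists were chosen with earlier results of these data known, so their counts are descriptions. As background, 6.85% of 6085 genes were called higher and 2.47% lower. Of 12 tested NRF2 target genes 10 were higher in Hmox1-high cells and 0 lower, with a list median log2 fold change of 1.44. Prdx1 differed by 1.65 (SE 0.06), the sulfiredoxin gene Srxn1 at 1.96 (SE 0.13), the thioredoxin reductase gene Txnrd1 at 1.23 (SE 0.09) and Gclm, a subunit of the enzyme that starts glutathione synthesis, at 1.90 (SE 0.15). Of 8 tested partners of NRF2 and BACH1, Sqstm1 at 1.05 (SE 0.07), Mafg at 1.44 (SE 0.13), Maff at 1.22 (SE 0.17) and Keap1 at 1.10 (SE 0.26) were higher. Nfe2l2, named after its value was seen, stood at 0.082 (SE 0.13, edgeR adjusted p = 0.757).

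The fate of heme iron was covered by 10 tested iron genes, of which 3 were higher and 0 lower. They were Ftl1 at 0.72 (SE 0.03), Fth1 at 0.41 (SE 0.02) and the iron exporter gene Slc40a1 at 1.45 (SE 0.39, edgeR adjusted p = 0.0275). Slc40a1 stood at 39.1 and 29.2 CPM in high cells of the 12-week and 1-week libraries, against 17.7 and 8.93 CPM in low cells. Por was higher by 1.07 (SE 0.15). Alas1, the first enzyme of heme synthesis, was higher by 0.76 (SE 0.22, edgeR adjusted p = 0.0440), and Urod, the other of the 2 tested synthesis genes, stood at 0.33 (edgeR adjusted p = 0.766). Of the 5 tested genes of heme and hemoglobin uptake, export and carriage 0 were called, with a list median of -0.68. They were Lrp1, Pgrmc1, Hebp1, Pgrmc2 and Flvcr1, named here because the list is short. All 3 metallothionein list genes were higher, Mt1 by 1.10 (SE 0.05), Mt2 by 0.96 (SE 0.10) and the zinc exporter gene Slc30a1 by 1.31 (SE 0.20).

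**Figure D5:**
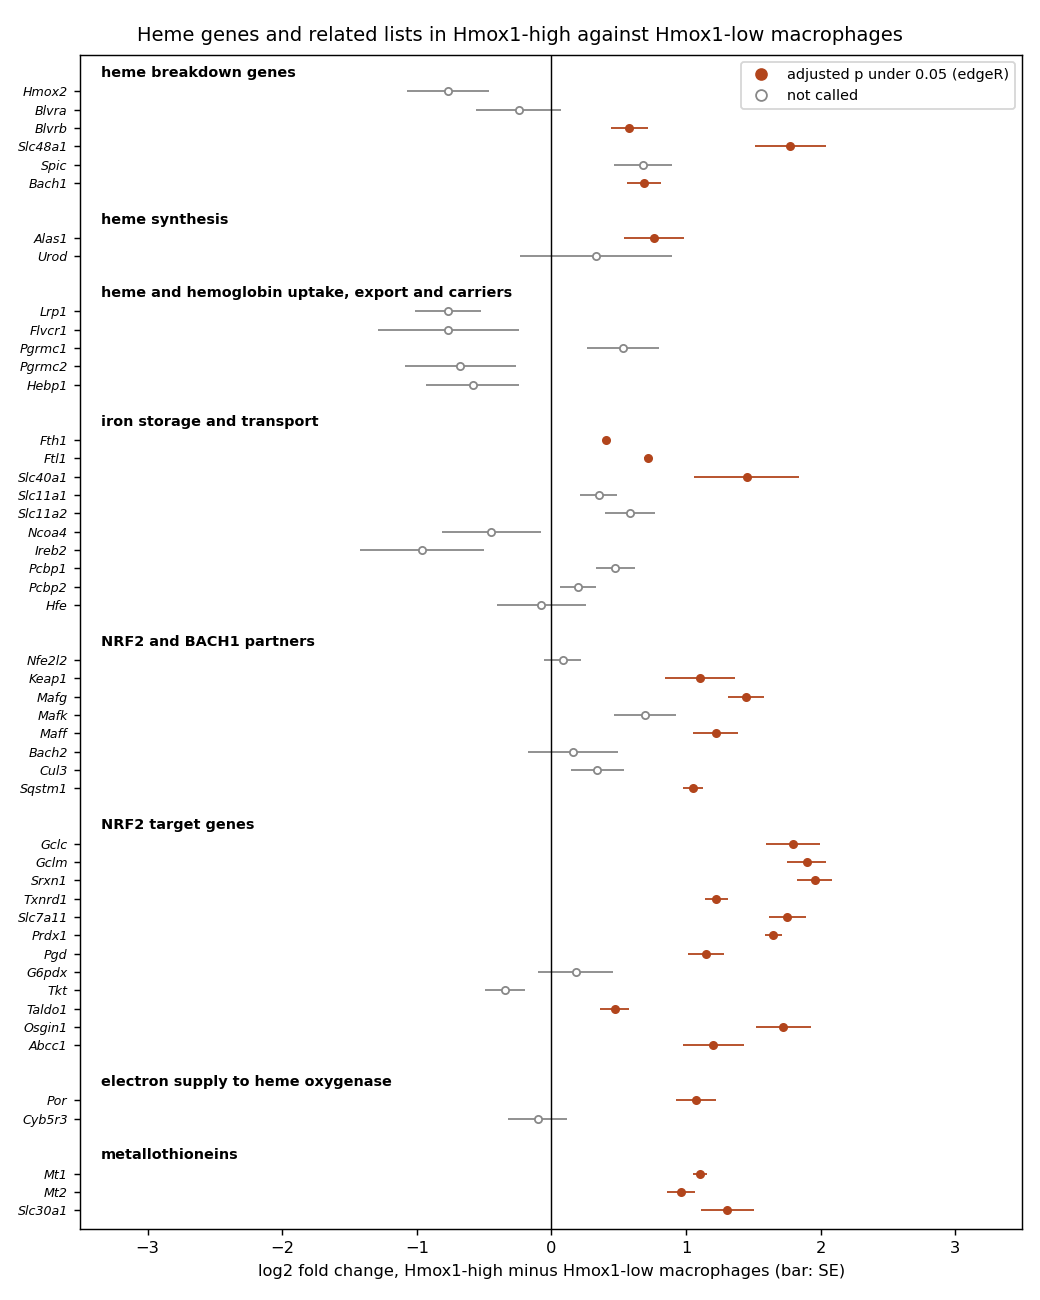
Log2 fold change of Hmox1-high over Hmox1-low macrophages with its SE for 6 heme breakdown genes and the tested genes of 7 related lists. Filled points passed an edgeR adjusted p of 0.05. Slc48a1, Bach1 and Blvrb are filled, as are 10 of 12 NRF2 target genes and 3 of 10 iron genes.

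Stress genes and hormone RNA moved with the same contrast. All 10 heat shock genes were higher in Hmox1-high cells, Hspa1b by 1.86 (SE 0.09), and their sum stood at 21679 and 12277 CPM in high cells, against 10030.5 and 4431 CPM in low cells. Immediate early genes were higher for 7 of 10, led by Atf3 at 1.20 (SE 0.11). The islet hormone genes Iapp and Ins2 were lower, by -1.71 (SE 0.18) and -1.53 (SE 0.17), and all endocrine markers summed to 1692 and 2374 CPM in high cells, against 3430 and 11455 CPM in low cells. C1qa was lower by -0.40 (SE 0.05) and the C1q sum was 7805 and 8812 CPM in high cells, against 10544 and 11714 CPM in low cells. Erythroid markers summed to 452 and 83.1 CPM in high cells, against 14.7 and 0 CPM in low cells. Of the 393 erythroid UMIs of the high cells at 12 weeks, 368 came from a single cell. All 54 of the high cells at 1 week came from a single cell too. Median mitochondrial shares were 2.95% and 3.26% in high cells and 3.24% and 3.37% in low cells. Without macrophages over 5% hormone UMIs the fold changes of Slc48a1, Bach1 and Blvrb were 1.78, 0.78 and 0.57, and all 3 were called. The part of heat shock, immediate early and erythroid RNA in the result was not tested.

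No other member was called between cells with and without a counted Spic UMI, in a contrast that called few genes of any kind. With at least 1 Spic UMI in the first part, 197 and 71 macrophages of the 12-week and 1-week libraries were set against 1259 and 935 with none. Spic in the second part stood at 338 and 225 CPM in positive cells, against 40.5 and 27.3 CPM in the others, so that cells without a Spic UMI in the first part still held Spic. Hmox1 stood at 4353 (4149 to 4564) and 2458 (2207 to 2730) CPM in positive cells, against 3754 (3679 to 3831) and 1896 (1834 to 1959) CPM. These counting intervals did not overlap in either library. On the log2 scale Hmox1 differed by 0.25 (SE 0.07, edgeR unadjusted p = 0.00835, adjusted p = 0.909). Of the 6 tested members 0 were called, where 0% of 6336 genes were called higher and 0.0473% lower. At an unadjusted p under 0.05 the edgeR fit had 130 genes higher and 197 lower, and DESeq2 called 1 higher and 2 lower after adjustment. The remaining 5 members had edgeR adjusted p-values of 0.909 or more, and the differences of Blvra and Blvrb changed sign with the processing.

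The 3 genes lower in Spic-positive cells were Hspa1a by -0.93 (SE 0.09, edgeR adjusted p = 0.0100), Hspa1b by -0.99 (SE 0.10) and the hemoglobin gene Hbb-bs by -5.41 (SE 0.60). Erythroid markers summed to 15.2 and 0 CPM in positive cells, against 162 and 28.9 CPM in the others. Of the 407 erythroid UMIs of the 12-week cells without Spic, 368 came from a single cell. All 54 of the 1-week cells without Spic came from a single cell too. The Hbb-bs call therefore cannot be read as a difference between groups of cells. With 1 residual degree of freedom and 71 positive cells at 1 week, this contrast had little precision for sparse genes, and its counts moved with the random draw, to 10 genes higher and 22 lower with another seed.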

How the data were processed

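Droplet 3′ RNA libraries of sorted islet immune cells, 1 per time label, were analysed from the matrices the authors deposited, which hold raw UMI counts. Cell Ranger and mm10 are named per the submitters' processing notes, and version 3.1.0 per the file headers. The titles number the libraries as replicates, whereas groups were taken from the time labels.

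Barcodes with at least 500 genes, 1000 UMIs and at most 10% mitochondrial UMIs were kept. No doublet caller was run here. Macrophages had at least 5 C1q UMIs, and low-C1q cells were grouped by at least 3 UMIs from at least 2 markers of a single list. Counts were summed per library and group and tested with edgeR 4.0.16 in R 4.3.3 (TMM, filterByExpr, quasi-likelihood, library block, Benjamini-Hochberg at 0.05 over all genes), with 2 residual degrees of freedom for cell groups and Hmox1 tertiles and 1 for Spic, and DESeq2 1.42.0 as an alternative. The block rests on profiles of the same library coming from the same pool of mice. P-values set a difference against its spread between the libraries, which carry different time labels, with each gene's variance drawn towards that of all genes tested. No spread within a time label enters them. For Hmox1 and Spic, 4000 UMIs per cell were drawn and split into 2 parts of 2000, with 164 and 237 shallower macrophages left out at 12 weeks and 1 week. Correlations used cells thinned to 3000 UMIs, with 90 and 154 left out. CPM scales counts to the summed UMIs of the group. Positions came from GENCODE by gene identifier, and 7 of 7 members matched.

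All 7 members are named. Like genes were the 5 (10 for Hmox1) of highest lower r for members found in at least 10% of thinned macrophages of both libraries, of which 1 is not reported here, and list and contrast examples were taken by smallest p. The members and lists were chosen with earlier results of these data known. The fits, thinning and splitting were tested on simulated data.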

Additional observations from a re-analysis of the deposited data

Results flagged for a closer look

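Values of opposite sign in the libraries drew attention for 2 genes, and since each time label has 1 library, the difference between the libraries was not tested. Blvra in Hmox1-high minus Hmox1-low macrophages had a log2 fold change of 0.036 within the 12-week library and -0.60 within the 1-week library, from 23 and 13 UMIs in high cells and 29 and 28 UMIs in low cells. Blvrb in Spic-positive minus Spic-zero macrophages had 0.15 within the 12-week library and -0.30 within the 1-week library, from 106 and 27 UMIs in positive cells. With a single library per label, no library could be set against others of its group.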

How the results depend on the processing

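With no filter on low counts, genes called higher in macrophages numbered 1276 in place of 570 (members 5 in place of 3), against B cells 1103 in place of 608 (members 5) and against dendritic cells 591 in place of 285. With all low-C1q cells as 1 group they numbered 1834 (members 6), and 1579 (members 5) without hormone-rich cells. With cells thinned to 1000 UMIs they numbered 131, against B cells 140 and against dendritic cells 81, with 1 member each. The cause of that drop was not tested. Keeping the T group with its 9 cells left Hmox1, Blvrb and Bach1 called higher. This setting and those on hormone RNA were chosen after seeing the data. Stricter cell filters left no other group of 10 cells in both libraries, so that contrast could not be fitted under them.

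Between Hmox1-high and Hmox1-low macrophages, 417 genes were higher and 150 lower. DESeq2 called 184 and 32 (members 1 in place of 3), and 2 parts of 1000 UMIs 274 and 99. Genes lower numbered 226 under stricter cell filters, 259 with 2 parts of 3000 UMIs and 284 without hormone-rich macrophages. Without the replicate block, in which profiles of the same library are paired, 52 genes were higher and 4 lower, with 0 members. For Spic, with 0 genes higher and 3 lower, the counts of higher and lower were 7 and 11 with RLE scaling, 3 and 13 without the filter, 16 and 21 without macrophages carrying other markers, 31 and 24 with parts of 3000 UMIs, 10 and 22 with another seed, and 5 and 7 without hormone-rich macrophages. DESeq2 called 1 higher, stricter filters 2 higher, and 0 were lower without the block or with parts of 1000 UMIs. Without thinning, 5 member pairs in place of 3 correlated at 0.1 or more in both libraries. The cause of these shifts was not tested. Between Spic-positive and Spic-zero macrophages, uncalled differences changed sign. Blvrb, at 0.013, stood at -0.017 by DESeq2, -0.069 without the filter and -0.00077 without the replicate block. Blvra, at 0.55, stood at -0.85 under stricter cell filters, -0.12 without macrophages carrying other markers, -7.22 and -0.64 with parts of 1000 and 3000 UMIs, and -0.56 without hormone-rich macrophages. Besides these, 82 summary values stayed within their limits, and of the single-gene values 281 stayed, 62 moved, 7 gained and 4 lost the call. Depth limits the sparse members, and 1 library per time label leaves the labels untested.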

Other observations

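Hemoglobin RNA marked a few macrophages, which were looked at after their values were seen. Over 10 UMIs of erythroid markers were found in 6 of 1620 macrophages at 12 weeks and in 1 of 1243 at 1 week. The 3 cells with the most at 12 weeks, 1480, 57 and 40 erythroid UMIs, had 108, 121 and 125 Hmox1 UMIs per 10000, above 95.6%, 97.7% and 98.0% of the macrophages of that library. The others at 12 weeks, with 25, 12 and 11 erythroid UMIs, had 4.38, 54.1 and 18.1, on both sides of the library median of 31.5. The cell at 1 week, with 425 erythroid UMIs, had 47.7 Hmox1 UMIs per 10000, above 89.6% of its library, whose median was 9.44. So few cells allow no test.

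Spic was found too rarely at 1 week for its nearest genes to be ranked under the rule used for the other members, and its values were looked at afterwards. Prdx1 was most like it (r = 0.19 and 0.13 in the 12-week and 1-week libraries), and Id2 followed (0.13 and 0.13). Hspa1b ran most opposite (-0.17 and -0.088), whereas Hspa1b was higher in Hmox1-high macrophages.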
